A study of Mus musculus with 4 samples.

Results

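The genes described here are the mouse carriers of inorganic ions and of acid and base in 8 solute carrier families. They are the rows of the count table whose symbol belongs to Slc4, Slc8, Slc9, Slc12, Slc20, Slc24, Slc26 or Slc34, in the a or b branch. The rule used the symbol alone and no measured value, although earlier results of these data were known when it was chosen. There were 55 such genes of 46095 in the table, and 38 of the 55 had enough counts to be tested, as did 17169 genes in all. The samples were colon of C57BL/6 mice at postnatal day 21, with 2 libraries of the genotype Esr2-/-, labelled Esr2-KO, and 2 of wild type, labelled WT. Esr2 encodes estrogen receptor β, and the comparison asks what its loss does to transcripts of the colon. The labels give neither the deleted part of Esr2, nor the segment of colon, nor whether the 2 libraries of a genotype came from separate animals. The p-values thus set the genotype difference against the spread between these libraries, which may not be the spread between animals. The design text of the series names more replicates per genotype than the 2 analysed here.

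The colon absorbs salt and water by pairing a sodium-proton exchanger with a chloride-bicarbonate exchanger in the apical membrane, so that sodium and chloride enter the cell while acid and base leave it. Secretion runs the other way: a sodium-potassium-chloride cotransporter in the basolateral membrane loads the cell with chloride, which leaves through apical channels, and the potassium-chloride cotransporters let chloride out with potassium. The Slc9 family exchanges sodium for protons, the Slc4 and Slc26 families move bicarbonate, chloride and sulfate, and the Slc12 family couples chloride to sodium or potassium. The Slc20 and Slc34 families bring phosphate in with sodium, and the Slc8 and Slc24 families trade sodium for calcium.

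The libraries held between 30826790 and 33709643 counts, and values are given as CPM, counts scaled to the library total after TMM adjustment. A count of 3, used as the floor for a count of 0, corresponds to 0.0826 to 0.114 CPM, and such floors cover counting error only. Esr2 had 6 and 16 counts in Esr2-KO and 21 and 13 in WT, a log2 fold change of -0.32 ± 0.77 (SE), so that these low counts over the whole gene did not check the labels. The epithelial markers Epcam (1445 and 1328 CPM in Esr2-KO, 1367 and 1376 CPM in WT) and Vil1 (486 and 472 CPM in Esr2-KO, 462 and 470 CPM in WT) were present in every library, as the labelled tissue calls for. Esr2-KO 2 stood apart, since 27 genes of pancreatic acinar cells took 19.3% of its counts (225540 CPM summed), against 0.193% (1861 CPM) in Esr2-KO 1 and 0.0506% and 0.0553% (470 and 530 CPM) in WT, with Prss1, Prss2 and Try4 at 0 throughout. Hox genes of the distal gut summed to 811 and 921 CPM in Esr2-KO and 99.5 and 202 CPM in WT, with 2 of 6 tested genes past the threshold, both higher, and Hoxc10 at 0 in both Esr2-KO libraries. Hox genes of the proximal gut summed to 44.1 and 41.2 CPM in Esr2-KO and 69.6 and 105 CPM in WT, with 2 of 6 tested past the threshold, both lower, and Hoxc8 at 0 in Esr2-KO 1. The part of gut position or of pancreatic RNA in the results below was not tested beyond the values given, and segment of colon and genotype cannot be told apart.

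In Esr2-KO colon the mitochondrial sodium-calcium exchanger Slc8b1 and the sulfate carrier Slc26a2 were higher, and the plasma membrane sodium-calcium exchanger Slc8a1 and the phosphate cotransporter Slc34a2 were lower. These 4 of 38 tested carriers, 2 in each direction, had an adjusted p below 0.05 in the quasi-likelihood test of edgeR, fitted to all genes. Of all tested genes 2.69% passed, 1.30% higher and 1.39% lower. The median log2 fold change, always Esr2-KO over WT, was 0.12 over the carriers and 0.00 over all tested genes. The 2 Esr2-KO libraries lay on one side of both WT libraries for 23 of the 38 carriers, against 54.7% of all tested genes, and 24 of the 38 log2 fold changes were positive, against 49.7%. An absolute log2 fold change of at least 1 was reached by 7 carriers, against 10.9% of all tested genes. Leaving out a library leaves 1 in its genotype, which is then assumed to vary like the pair of the other genotype. With the spread taken from the Esr2-KO pair in this way, none of the 4 passed without WT 1 and Slc26a2 alone of the 4 passed without WT 2, with log2 fold changes of the same sign. With the spread taken from the WT pair, whose libraries differed less, all 4 passed without Esr2-KO 1 and without Esr2-KO 2. With library totals in place of TMM the median of all genes moved to -0.17, all calls split into 208 higher and 487 lower, where TMM gave 223 higher and 239 lower, and Slc8b1 and Slc26a2 did not pass, although relative to that median they stood at 0.83 and 0.99. The number of carriers passing was 4 with DESeq2 size factors (2.68% of all tested genes), 3 with library totals (4.05%), 10 with no low-count filter (7.51%), 8 with DESeq2 (10.2%), 5 with limma-voom (3.53%), 5 without acinar genes (3.19%) and 4 in a fit blocked by replicate number (2.85%). It was 8 without Esr2-KO 1 (10% of all tested genes), 5 without Esr2-KO 2 (2.77%), 0 without WT 1 (0.921%) and 2 without WT 2 (1.85%).

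The plot of levels by library shows how far the carriers of one family differ in abundance. Of the 55 genes, 10 had a mean of at least 100 CPM in WT, 10 lay between 10 and 100 CPM, 10 between 1 and 10 CPM, and 25 below 1 CPM. Levels of different genes are compared only per kilobase of merged coding-transcript exons in the GENCODE M21 annotation. On that scale the apical chloride-bicarbonate exchanger Slc26a3 led both genotypes, with a mean of 342 CPM per kb in Esr2-KO and 197 CPM per kb in WT. The order below it differed between genotypes. In Esr2-KO it ran Slc20a1 (165 CPM per kb), Slc26a2 (56.6), Slc9a2 (34.9) and Slc8b1 (28.1), and in WT it ran Slc20a1 (51.0), Slc9a3 (43.6), Slc9a2 (39.9) and Slc12a2 (38.6). The WT libraries of Slc20a1 (19.8 and 82.3 CPM per kb) and of Slc9a3 (55.3 and 31.9) spread across the neighbours in that order. Slc20a1 in WT 1 lay even below Slc34a2 (24.8 and 23.1), which ranked 9 in WT. The WT ranks from 2 to 9 are thus not all separated beyond the spread. In Esr2-KO, Slc8b1 (28.1 and 28 CPM per kb) was not separated from Slc12a2 (30.6 and 23.8) and lay close to Slc4a2 (27.3 and 26.2). Slc9a3 ranked 10 in Esr2-KO and 3 in WT.

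**Figure D1:**
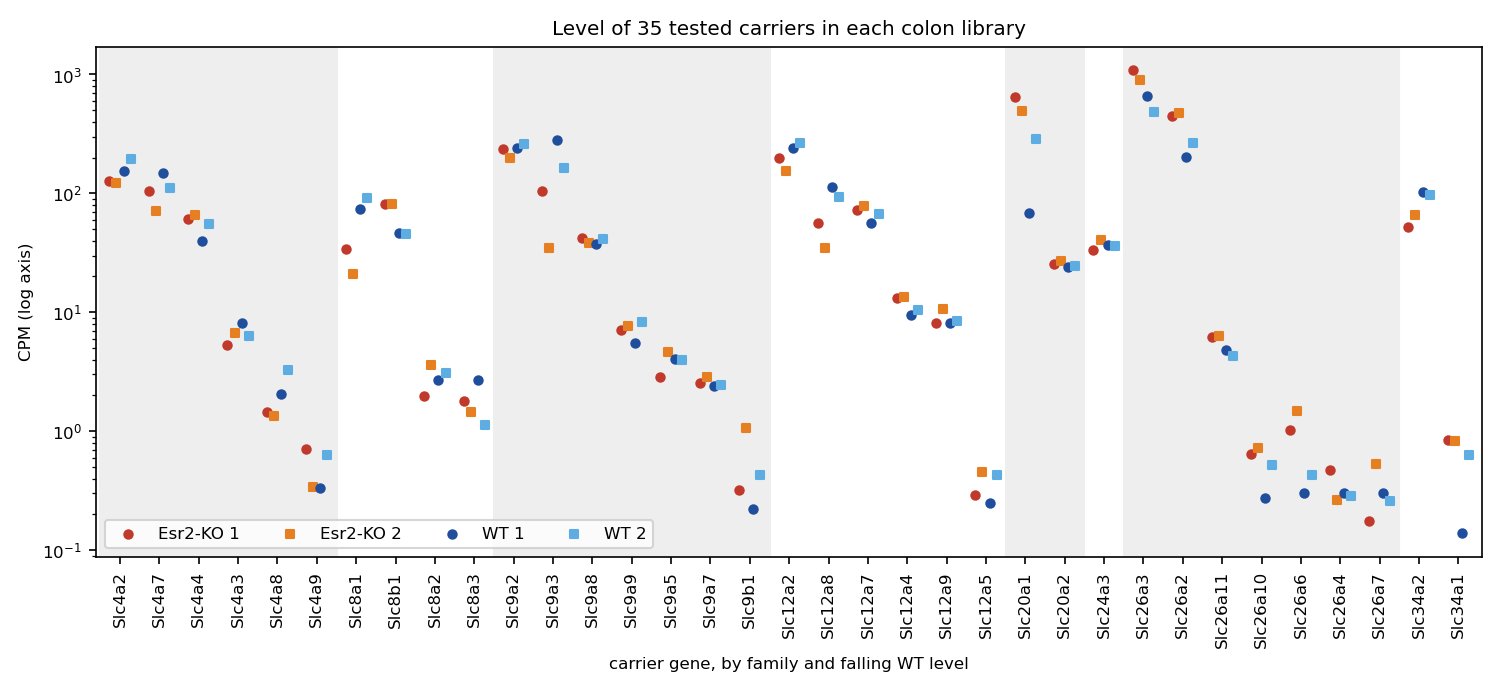
CPM on a log axis for 35 of the 38 tested carriers in each library, grouped by family (shaded bands) and sorted by mean WT level, with Esr2-KO as red circles and orange squares and WT as dark and light blue. Slc26a3 is the most abundant at 1087 and 905 CPM in Esr2-KO and 664 and 480 CPM in WT, and Slc9a3 shows one of the wider gaps, with 104 and 34.6 CPM in Esr2-KO and 283 and 164 CPM in WT.

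**Figure D2:**
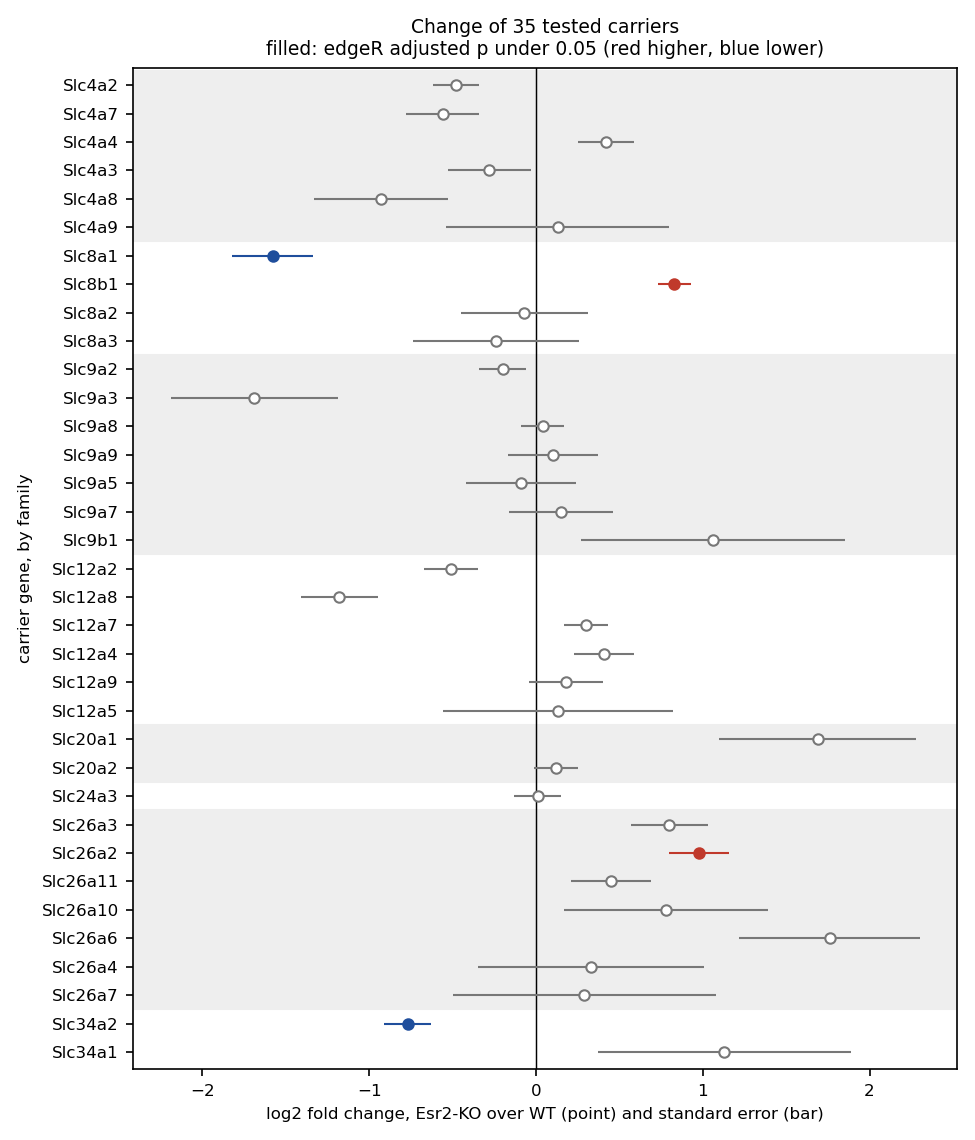
Log2 fold change of Esr2-KO over WT (points) with its standard error (bars) for 35 of the 38 tested carriers, by family; filled points passed an edgeR adjusted p of 0.05. Slc8b1 and Slc26a2 are the filled points above 0, Slc8a1 and Slc34a2 those below, and all 7 Slc26 points lie above 0, although Slc26a4 and Slc26a7 changed sign under some alternatives.

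Among the calcium carriers, one exchanger fell and another rose. Slc8a1 (NCX1; chromosome 17, 81373105 to 81738387, minus strand, GRCm38) exchanges sodium for calcium at the surface of muscle, nerve and other cells. It had 34.1 and 20.8 CPM in Esr2-KO and 73.3 and 91.4 CPM in WT. Both Esr2-KO libraries lay below both WT libraries, and the change on the log2 scale was -1.58 ± 0.24 (SE, n = 2 per group; edgeR adjusted p = 0.0305). In bulk tissue, fewer cells of a type and less RNA per cell cannot be told apart. Smooth muscle and pacemaker cell genes, markers of cells that use Slc8a1, summed to 5150 and 6495 CPM in Esr2-KO and 6538 and 5085 CPM in WT, with 0 of 9 past the threshold, a median log2 fold change of 0.00 and none at 0. Kit, the pacemaker cell marker of that list, had 48.3 and 31.3 CPM in Esr2-KO and 77.3 and 66.5 CPM in WT, with no overlap and a log2 fold change of -0.85 ± 0.21 that did not pass (edgeR adjusted p = 0.0885). Enteric neuron and glia genes summed to 93.9 and 87.9 CPM in Esr2-KO and 123 and 121 CPM in WT, with 0 of 13 past the threshold, all 13 negative, a median of -0.35 and none at 0. The part of either list in the fall of Slc8a1 was not tested. The exons of Slc8a1, 18.6 kb in all, share at least 296 bases with AC122399.1 on the opposite strand. That is the longest single stretch, as are the shared lengths given below, so that the total can be larger. The sources used here do not say whether the counting used strand.

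Slc8b1 (NCLX; chromosome 5, 120511168 to 120534024), which lets calcium out of mitochondria in exchange for sodium, had 81.8 and 81.3 CPM in Esr2-KO and 46.5 and 45.4 CPM in WT. The libraries within each genotype nearly coincided, and the change on the log2 scale was 0.83 ± 0.10 (SE, n = 2 per group; edgeR adjusted p = 0.022). Of the counts of the Slc8 family, Slc8b1 took 68.3% and 75.9% in Esr2-KO and 37.1% and 32.2% in WT, while Slc8a1 took 28.5% and 19.4% in Esr2-KO and 58.6% and 64.8% in WT. By raw counts Slc8b1 led the family in both Esr2-KO libraries and Slc8a1 in both WT libraries. These shares do not allow for length, since Slc8a1 has 18.6 kb of exons and Slc8b1 has 2.9 kb. Per kb, Slc8b1 stood above Slc8a1 in every library, with ratios of 15.4 and 25.1 in Esr2-KO and 4.06 and 3.18 in WT. Without WT 1 the edgeR adjusted p was 0.0724 for Slc8b1 and 0.0558 for Slc8a1, and without WT 2 it was 0.058 and 0.0737, with log2 fold changes that kept their sign. The neuronal exchangers Slc8a2 and Slc8a3 lay between 1.12 and 3.57 CPM in all libraries, with overlapping genotypes. In the Slc24 family, which moves potassium along with calcium, Slc24a3 (NCKX3) was the 1 member tested. It had 33.7 and 40.2 CPM in Esr2-KO and 37.1 and 36.0 CPM in WT, with overlapping genotypes and a difference of 0.01 ± 0.14 on the log2 scale, whose sign turned under some alternatives (edgeR adjusted p = 0.969).

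All 7 tested members of the Slc26 anion exchangers had positive log2 fold changes, with a median of 0.78, although Slc26a4 and Slc26a7 changed sign under some alternatives. Of the 7, 1 passed the threshold. Slc26a2, the sulfate carrier whose loss in humans causes diastrophic dysplasia, had 450 and 476 CPM in Esr2-KO and 201 and 267 CPM in WT. Its 2 Esr2-KO libraries lay close together and above both WT libraries, with a log2 fold change of 0.98 ± 0.18 (SE, n = 2 per group; edgeR adjusted p = 0.0467). Without WT 1 the log2 fold change was 0.79 and the edgeR adjusted p 0.154. Slc26a3 (DRA; chromosome 12, 31433142 to 31473922), the exchanger that takes up chloride for bicarbonate at the colonocyte surface and whose loss in humans causes congenital chloride diarrhea, had 1087 and 905 CPM in Esr2-KO and 664 and 480 CPM in WT. The genotypes did not overlap, but its log2 fold change of 0.80 ± 0.23 did not pass (edgeR adjusted p = 0.119). Slc26a6 (PAT1), a related apical exchanger better known from the small intestine, was rare, with 35 and 39 counts in Esr2-KO and 11 and 15 in WT, and its change of 1.76 ± 0.54 on the log2 scale did not pass (edgeR adjusted p = 0.14). Slc26a11, a carrier reported in lysosomes, had 6.20 and 6.30 CPM in Esr2-KO and 4.82 and 4.31 CPM in WT (0.45 ± 0.24, edgeR adjusted p = 0.335). Pendrin (Slc26a4), Slc26a7 and Slc26a10 stayed below 1 CPM in every library. Exons of Slc26a10 share at least 715 bases with B4galnt1 on the opposite strand. In sum the Slc26 family held 1545 and 1389 CPM in Esr2-KO and 871 and 754 CPM in WT, of which Slc26a3 and Slc26a2 made up nearly all.

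Of the 4 tested phosphate carriers, 1 passed the threshold, the lower Slc34a2. Slc34a2 (NaPi-IIb; chromosome 5, 53049353 to 53071664), the main sodium-phosphate cotransporter of intestinal epithelium, had 51.9 and 65.9 CPM in Esr2-KO and 103 and 96.6 CPM in WT. The genotypes did not overlap and the change on the log2 scale was -0.77 ± 0.14 (SE, n = 2 per group; edgeR adjusted p = 0.0481). Without WT 1 the edgeR adjusted p was 0.183 and without WT 2 it was 0.107, with log2 fold changes of -0.72 and -0.79. Genes of the small intestine, where NaPi-IIb is also made, summed to 245 and 105 CPM in Esr2-KO and 805 and 984 CPM in WT, with 0 of 8 tested past the threshold, 4 of the 8 positive and a median log2 fold change of -0.44. Fabp2 made up most of that sum except in Esr2-KO 2, with 166 and 19.9 CPM in Esr2-KO and 717 and 826 CPM in WT. Rbp2 (0.73) and Mttp (0.68) had positive log2 fold changes with no overlap. Fabp1 was at 0 in both Esr2-KO libraries and Defa24 in all 4. Colonocyte genes summed to 19846 and 19643 CPM in Esr2-KO and 20728 and 24267 CPM in WT. Of these, 2 of 15 passed the threshold, Cdx2 and Car1, both lower, with a median log2 fold change of 0.02 and none at 0. Goblet cell genes summed to 19621 and 14857 CPM in Esr2-KO and 23813 and 21467 CPM in WT, with 0 of 9 past the threshold, 7 negative, a median of -0.75 and none at 0. The part of these cell types in the fall of Slc34a2 was not tested. Slc20a1 (PiT1; chromosome 2, 129198773 to 129211615), a sodium-phosphate cotransporter of most cells, had 647 and 491 CPM in Esr2-KO and 68.3 and 284 CPM in WT. Both Esr2-KO libraries were above both WT libraries, but the WT libraries themselves stood far apart, and the log2 fold change of 1.69 ± 0.59 did not pass (edgeR adjusted p = 0.176). The 1 library WT 1 decided its size: the log2 fold change was 1.0 without WT 1 and 3.07 without WT 2. It passed in the second of these (edgeR adjusted p = 0.0059), where WT 1 is the 1 library of its genotype and the Esr2-KO pair gives the spread. WT 1 was also the library with the lowest sum of distal Hox genes, whose part in the result was not tested. Slc20a2 (PiT2) had 25.5 and 27.2 CPM in Esr2-KO and 24 and 24.5 CPM in WT, a difference of 0.12 ± 0.13 on the log2 scale (edgeR adjusted p = 0.658). Slc34a1, the renal form, had 29 and 22 counts in Esr2-KO and 5 and 22 in WT. At least 545 bases of its exons are shared with Pfn3 on the opposite strand. Of the kidney genes looked at, Kap and Slc22a6 had no count in any library.

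None of the 9 tested Slc9 sodium-proton exchangers passed the threshold. Slc9a3 (NHE3; chromosome 13, 74086255 to 74169442), the exchanger that absorbs sodium at the apical membrane, had 104 and 34.6 CPM in Esr2-KO and 283 and 164 CPM in WT. The genotypes did not overlap, but libraries of both genotypes differed widely, and the log2 fold change of -1.69 ± 0.50 did not pass (edgeR adjusted p = 0.128). Single libraries of both genotypes weighed on this value. The log2 fold change was -1.10 without Esr2-KO 2 and -2.69 without Esr2-KO 1. It was -1.24 without WT 1 and -2.02 without WT 2. Each of these fits leaves 1 library in a genotype, so that the pair of the other genotype gives the spread. Slc9a2 (NHE2), another apical exchanger, had 238 and 198 CPM in Esr2-KO and 240 and 259 CPM in WT (-0.20 ± 0.14, edgeR adjusted p = 0.488), so that the 2 groups lay nearly side by side. The rarer surface exchanger Slc9a5 (NHE5), known from brain, had 2.84 and 4.67 CPM in Esr2-KO and 4.05 and 3.94 CPM in WT, with overlapping genotypes. Slc9a7, Slc9a8 and Slc9a9, grouped here as exchangers of organelles, had log2 fold changes between 0.04 and 0.15. The signs of all of these turned under some alternatives. Where these proteins sit in colon cells cannot be read from RNA. Slc9a2 took 51.7% and 56.2% of the counts of the Slc9 family in Esr2-KO and 37.7% and 46.8% in WT, and Slc9a3 took 22.5% and 9.83% in Esr2-KO and 44.5% and 29.6% in WT.

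The promoters of the carriers are shown for the fallen genes that the RefSeq table covers, Slc8a1 and Slc34a2, and for the apical pair Slc9a3 and Slc26a3, as 250 bases before the RefSeq start (GRCm38.p6), 5′ to 3′ on the strand of the gene. The start used by the promoter table lies inside the gene spans given above for Slc9a3 and Slc26a3, downstream of their first base. Both strands were searched for the estrogen response element (GGTCA, any 3 bases, TGACC), the nuclear receptor hexamer AGGTCA, the GC box GGGCGG and the CDX motif TTTATNG, and capitals mark the matches found.
Slc8a1, chr17:81738388-81738637, minus strand: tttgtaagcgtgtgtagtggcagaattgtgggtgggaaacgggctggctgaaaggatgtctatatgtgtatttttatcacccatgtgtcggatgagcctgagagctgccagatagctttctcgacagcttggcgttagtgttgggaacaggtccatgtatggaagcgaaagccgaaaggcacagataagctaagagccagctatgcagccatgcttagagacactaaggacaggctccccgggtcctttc
Slc34a2, chr5:53049103-53049352, plus strand: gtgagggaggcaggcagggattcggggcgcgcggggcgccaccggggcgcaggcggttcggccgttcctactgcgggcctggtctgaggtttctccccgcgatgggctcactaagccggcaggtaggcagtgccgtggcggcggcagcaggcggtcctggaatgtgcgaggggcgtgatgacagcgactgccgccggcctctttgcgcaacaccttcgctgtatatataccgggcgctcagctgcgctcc
Slc9a3, chr13:74121163-74121412, plus strand: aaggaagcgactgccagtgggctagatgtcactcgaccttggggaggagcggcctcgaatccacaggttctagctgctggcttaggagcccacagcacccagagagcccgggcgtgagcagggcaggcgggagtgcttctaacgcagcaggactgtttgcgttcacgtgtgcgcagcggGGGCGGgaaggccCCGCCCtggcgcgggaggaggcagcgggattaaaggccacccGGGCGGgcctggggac
Slc26a3, chr12:31437969-31438218, plus strand: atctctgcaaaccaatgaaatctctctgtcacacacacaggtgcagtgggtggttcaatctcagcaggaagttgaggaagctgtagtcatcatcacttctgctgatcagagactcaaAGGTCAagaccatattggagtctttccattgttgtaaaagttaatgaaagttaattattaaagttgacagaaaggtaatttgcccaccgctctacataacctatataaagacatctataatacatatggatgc
The Slc9a3 window held 3 GC boxes and was 67.6% G and C, and the Slc26a3 window held 1 AGGTCA, 133 bases before the start, and was 38.8% G and C. None of the searched letters occurred in the windows of Slc8a1 and Slc34a2. Of 52 promoter windows of 41 carriers in the table, 0 held the full estrogen response element, 10 held AGGTCA, 21 held the GC box and 5 held the CDX motif. Over all 32851 windows of the same length the shares were 0.0639%, 14.0%, 32.7% and 9.81%, in that order. A match of letters is no binding site, and its absence from this window says nothing of the receptor.

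No Slc4 bicarbonate carrier passed the threshold, and 4 of the 6 tested had negative log2 fold changes, with a median of -0.38. Slc4a2 (AE2; chromosome 5, 24423761 to 24440947), the basolateral chloride-bicarbonate exchanger, had 127 and 122 CPM in Esr2-KO and 155 and 193 CPM in WT. The genotypes did not overlap and the log2 fold change was -0.48 ± 0.14 (edgeR adjusted p = 0.13). Its exons share at least 255 bases with Fastk on the opposite strand. Slc4a7 (NBCn1), which imports bicarbonate with sodium, had 104 and 70.6 CPM in Esr2-KO and 148 and 110 CPM in WT (-0.56 ± 0.22, edgeR adjusted p = 0.219). Slc4a4 (NBCe1), the electrogenic carrier of bicarbonate, had 61.1 and 65.8 CPM in Esr2-KO and 39.7 and 55 CPM in WT (0.42 ± 0.17, edgeR adjusted p = 0.228). Slc4a4 is also a gene of the exocrine pancreas, and the part of pancreatic RNA in its value was not tested. The less abundant Slc4a3 (AE3) and Slc4a8 (NDCBE) had log2 fold changes of -0.28 ± 0.25 and -0.93 ± 0.40, and neither passed.

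None of the 7 tested Slc12 chloride cotransporters passed the threshold. Slc12a2 (NKCC1), which loads chloride for secretion, had 200 and 155 CPM in Esr2-KO and 240 and 263 CPM in WT (-0.51 ± 0.16, edgeR adjusted p = 0.144), with no overlap of the genotypes. Of the potassium-chloride cotransporters, Slc12a4 (KCC1) had 13.1 and 13.4 CPM in Esr2-KO and 9.42 and 10.5 CPM in WT (0.41 ± 0.18, edgeR adjusted p = 0.262). Slc12a7 (KCC4) had 72.7 and 78.6 CPM in Esr2-KO and 56.0 and 67.0 CPM in WT (0.30 ± 0.13, edgeR adjusted p = 0.254). For both, the 2 Esr2-KO libraries lay above both WT libraries, and the log2 fold changes were positive under all 11 alternatives. The neuronal Slc12a5 (KCC2) stayed below 1 CPM in every library, with overlapping genotypes. Slc12a8 (chromosome 16, 33517328 to 33664138), a distant member reported in mice to carry nicotinamide mononucleotide, had 56.2 and 34.9 CPM in Esr2-KO and 114 and 92.8 CPM in WT. Its log2 fold change of -1.18 ± 0.23 lay just outside the threshold (edgeR adjusted p = 0.0533), next to Slc34a2 and Slc26a2 just inside it (0.0481 and 0.0467). It passed in 8 of 11 alternatives, with adjusted p from 1.58e-05 to 0.192 over all 11, and among the fits with a library left out it passed without Esr2-KO 1 (edgeR adjusted p = 0.000633) and Esr2-KO 2 (0.0366) but not without WT 1 (0.192) or WT 2 (0.0737). The weakly expressed Slc12a9 had 8.13 and 10.6 CPM in Esr2-KO and 8.10 and 8.42 CPM in WT.

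**Figure D3:**
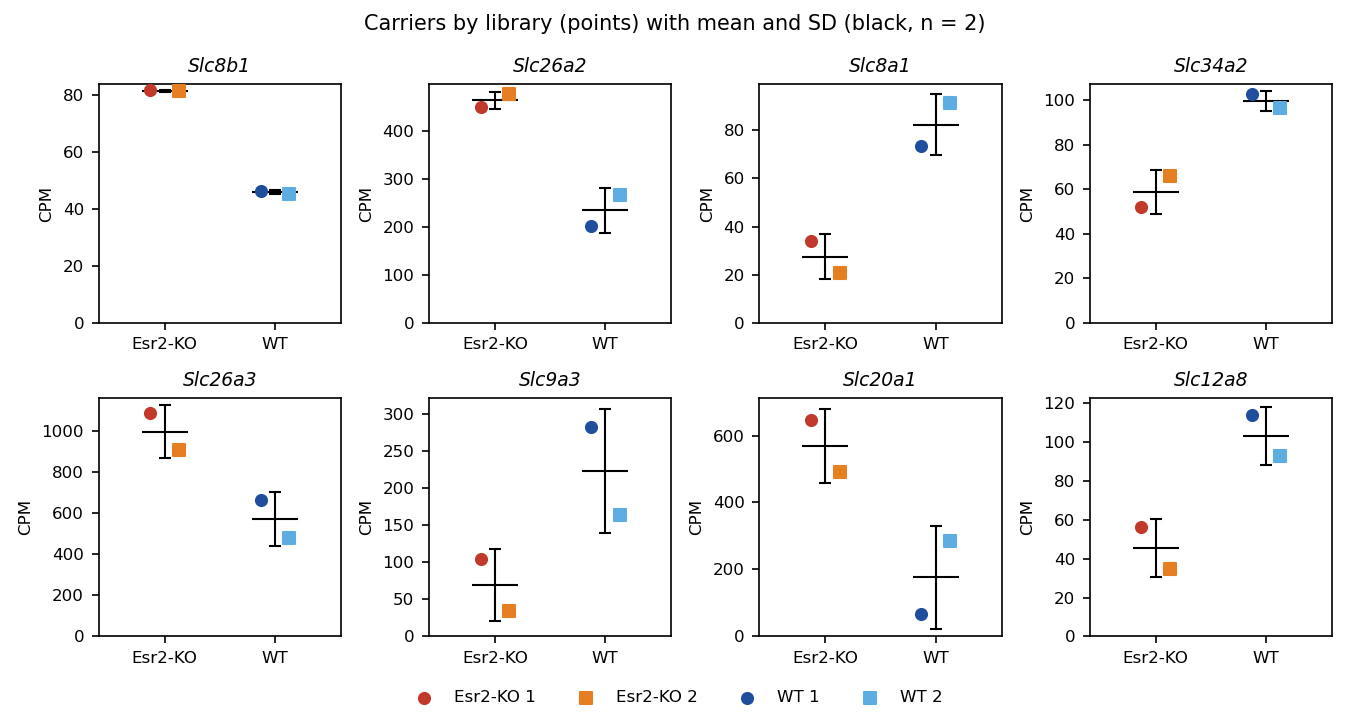
CPM by library (colored points), with the mean and SD of each genotype in black (n = 2), for the 4 carriers that passed the threshold (upper row) and 4 that did not (lower row). The genotypes do not overlap in any panel; the Slc8b1 libraries nearly coincide within each genotype, while the WT libraries of Slc20a1 lie at 68.3 and 284 CPM.

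Ratios of carriers within a library are free of library scaling and are given as values without a test. In bulk tissue the carriers of a pair need not be made by the same cells. For Slc26a3 over Slc9a3, Slc8b1 over Slc8a1 and Slc20a1 over Slc34a2, the first gene was higher and the second lower in Esr2-KO, each with no overlap. The ratios of these pairs therefore had to separate the genotypes and add no result of their own. The ratio of Slc26a3 to Slc9a3, the apical chloride and sodium exchangers, in CPM per kb, was 18.5 and 46.1 in Esr2-KO and 4.13 and 5.17 in WT. Both Esr2-KO libraries lay above both WT libraries, and the gap between Esr2-KO libraries was wider than that between WT libraries. The ratio of mitochondrial Slc8b1 to surface Slc8a1 was 15.4 and 25.1 in Esr2-KO and 4.06 and 3.18 in WT. The ratio of Slc20a1 to Slc34a2 was 15.1 and 9.01 in Esr2-KO and 0.798 and 3.56 in WT, so that Slc34a2 had the higher level per kb in WT 1 alone. The ratio of Slc9a2 to Slc9a3 was 1.88 and 4.69 in Esr2-KO and 0.694 and 1.30 in WT. The ratio of Slc26a2 to Slc26a3 overlapped between genotypes, at 0.147 and 0.187 in Esr2-KO and 0.108 and 0.198 in WT.

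**Figure D4:**
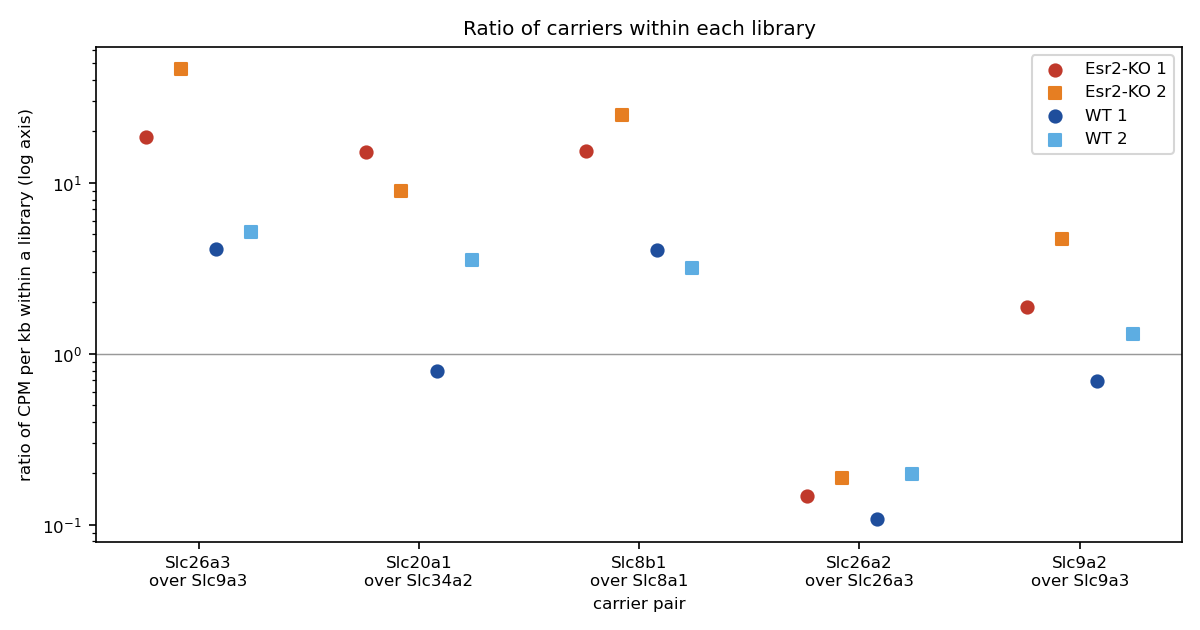
Ratio of CPM per kb of 2 carriers within each library on a log axis, where the grey line marks equal levels. Slc26a3 over Slc9a3 stands at 18.5 and 46.1 in Esr2-KO and 4.13 and 5.17 in WT. Only Slc26a2 over Slc26a3 overlaps between the genotypes among the 5 ratios drawn. For Slc26a3 over Slc9a3, Slc8b1 over Slc8a1 and Slc20a1 over Slc34a2, the gap follows from the opposite changes of the single genes.

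The pumps, channels and regulators that work with these carriers were taken as 4 lists, of which 57 genes were tested, 3 rose and 1 fell (7.02% passing, against 2.69% of all tested genes). Because the lists were chosen with earlier results of these data known, the difference between these shares is no independent result. Among 11 channels 3 rose and 0 fell: the calcium-activated chloride channel Ano1 (229 and 229 CPM in Esr2-KO, 98.3 and 118 CPM in WT; 1.08 ± 0.14, edgeR adjusted p = 0.0221), and the sodium channel subunits Scnn1a (112 and 133 CPM in Esr2-KO, 77.8 and 71.3 CPM in WT) and Scnn1b (12.8 and 15.3 CPM in Esr2-KO, 5.40 and 6.84 CPM in WT). The median log2 fold change of the channels was 0.71. Ano1 did not pass without WT 1 (edgeR adjusted p = 0.0604). Scnn1a and Scnn1b did not pass with library totals (edgeR adjusted p = 0.186 and 0.0521), nor without Esr2-KO 2 (0.0803 and 0.0777), WT 1 (0.133 and 0.208) or WT 2 (0.14 and 0.0834). Of 9 carbonic anhydrases, which supply bicarbonate and protons, 1 fell, Car1, with 1112 and 1082 CPM in Esr2-KO and 3002 and 6491 CPM in WT (-2.11 ± 0.39, edgeR adjusted p = 0.0469), and the list median was -0.15. Car1 did not pass without Esr2-KO 2 (edgeR adjusted p = 0.056), and its log2 fold change was -1.43 without WT 2. None of 13 sodium pump and ion ATPase genes passed, with a median of -0.16 and the smallest p for the proton pump subunit Atp6v0a4 (0.351 and 0.341 CPM in Esr2-KO, 1.57 and 1.24 CPM in WT; edgeR adjusted p = 0.0922). None of 24 scaffolds, kinases and regulators passed, 19 of them negative with a median of -0.19. The smallest p among them belonged to the cGMP-dependent kinase Prkg2, which inhibits Slc9a3 in the gut, with 1.93 and 0.152 CPM in Esr2-KO and 14.3 and 32.1 CPM in WT (-4.41 ± 0.85, edgeR adjusted p = 0.0521). The scaffold Slc9a3r1 that holds Slc9a3 at the apical membrane had 252 and 236 CPM in Esr2-KO and 226 and 233 CPM in WT (0.09 ± 0.12, edgeR adjusted p = 0.742).

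The 17 carriers that were not tested had at most 21 counts in any library. Slc26a5, the motor protein prestin of the ear, and Slc26a9 had 0 counts in every library. Slc26a1, a sulfate exchanger of liver and kidney, had 0 and 0 counts in Esr2-KO and 4 and 4 in WT. Setting the Esr2-KO libraries together to the 3-count floor gives a 2.27-fold lower level, which leaves out the counting error of the WT counts. Exons of Slc26a1 share at least 141 bases with Idua on the opposite strand. Slc4a11 had 21 and 3 counts in Esr2-KO and 2 and 10 in WT. The renal Slc12a1 and Slc12a3 had at most 10 counts in any library, and the red cell exchanger Slc4a1 had 0 and 1 counts in Esr2-KO and 5 and 2 in WT, while 9 red cell genes, among them hemoglobin, summed to 149 and 168 CPM in Esr2-KO and 19.9 and 100 CPM in WT. The other untested genes were Slc4a5, Slc4a10, Slc9a4, Slc9b2, Slc24a1, Slc24a2, Slc24a4, Slc24a5, Slc26a8 and Slc34a3, with at most 18 counts in a library. Differences between the genotypes were not tested for them at these low counts. The genotypes did not overlap for Slc9a4 (5 and 2 counts in Esr2-KO, 13 and 6 in WT), Slc9b2 (3 and 4, 14 and 6) and Slc4a10 (0 and 2, 3 and 4). They overlapped for the rest of these genes. Slc9b1, known from testis, and Slc4a9 were tested but stayed near or below 1 CPM, with log2 fold changes of 1.06 ± 0.79 and 0.13 ± 0.67.

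**Figure D5:**
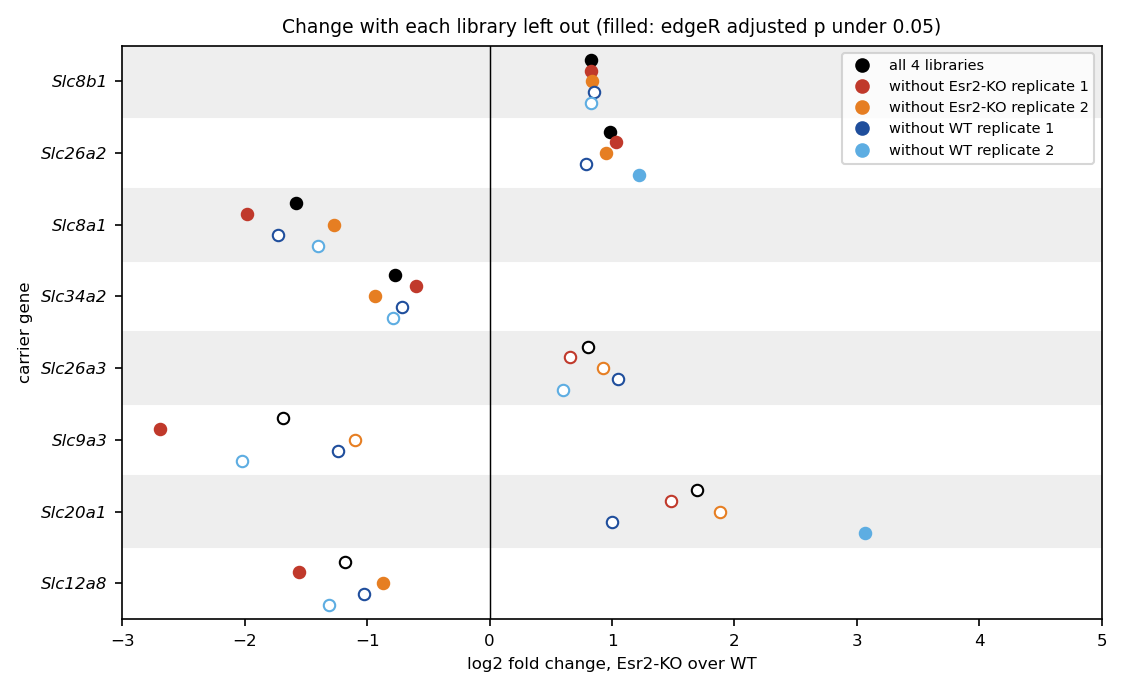
Log2 fold change of Esr2-KO over WT for 8 carriers with all 4 libraries (black) and with each library left out (colors); filled points passed an edgeR adjusted p of 0.05. All points keep the side of 0 they have with all libraries, Slc20a1 runs from 1.0 to 3.07 and Slc9a3 from -2.69 to -1.10.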

How the data were processed

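Total RNA of colon was sequenced in 4 libraries. The authors deposited whole-number counts per gene symbol with no normalization, and reads were aligned with HISAT2 to mm10, per the submitters' processing notes. Per the labels' protocols, Trizol extraction and ribosomal RNA depletion came before a directional library kit. The sources used here do not name the counting program, its annotation, its strand setting or any filter. In the table, 20580 of 46095 symbols had no count.

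Genes were kept with filterByExpr (minimum count 10, minimum total 15), which left 17169, scaled by TMM (factors 1.04 and 0.856 in Esr2-KO, 1.08 and 1.04 in WT) and tested two-sided with edgeR 4.0.16 in R 4.3.3 (glmQLFit, glmQLFTest; 2 residual degrees of freedom). P-values were adjusted by Benjamini-Hochberg over all genes, with 0.05 as the threshold. Standard errors came from the F statistic and the coefficient. The common biological coefficient of variation was 0.233. Counts differed between libraries of 1 genotype by more than sampling noise (chi-square per degree of freedom 478 in Esr2-KO, 39.7 in WT). The procedure was tested on simulated counts.

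Gene lengths are merged exons of coding transcripts in GENCODE M21, and coordinates (counted from 1) and promoter sequences are from RefSeq GRCm38.p6, the same build as mm10. The members and lists were chosen with earlier results of these data known. Values in every library are given for carriers past the threshold, the most abundant of each family in WT, those at least 2-fold changed with no overlap and a mean of at least 1 CPM, and those with counts over 3 in both libraries of 1 genotype alone; of the partner lists, for genes past the threshold and otherwise the one with the smallest p. Slc9a3r1 and the single marker genes fall outside this rule and were named after their values were seen; the other carriers are named so that every family is accounted for. Values of 3 tested carriers are not reported here, although the counts over all tested carriers include them. Alternatives were DESeq2 size factors, library totals, no low-count filter, DESeq2 1.42.0, limma-voom (limma 3.58.1), a block for the replicate number, the omission of each library in turn, and the omission of pancreatic acinar genes.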

Additional observations from a re-analysis of the deposited data

How the results depend on the processing

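Of the 38 tested carriers, 22 kept the sign of their log2 fold change under all 11 alternatives and 16 did not, and 11 passed the threshold in at least 1 of them. The log2 fold change of Slc24a3 turned to -0.16 with library totals and ran from -0.11 (without Esr2-KO 2) to 0.14 with a library left out. The number of carriers past the threshold, 4, was 10 with no low-count filter and 8 with DESeq2, both including the 4, and ran from 0 to 8 with a library left out. The number over all genes, 462, was 695 with library totals, 1916 with no low-count filter and 1693 with DESeq2, and ran from 165 to 1804 with a library left out. The number in the partner lists, 4, was 7 with library totals, 18 with no low-count filter, 17 with DESeq2, 9 with limma-voom and 8 without pancreatic acinar genes, and ran from 5 to 18 with a library left out. Of the 4 partner genes themselves, 2 passed with library totals, 1 with the replicate block, 1 without Esr2-KO 2, 1 without WT 1 and 2 without WT 2. The causes were not tested. The replicate numbers are shared by the genotypes in name only, and same-numbered libraries did not deviate together (r = -0.0641 over genes). With the replicate number as a block, 4 carriers, 490 genes and 6 partner genes passed, Slc26a2 (edgeR adjusted p = 0.0536) and Slc34a2 (0.0623) did not, and Slc12a8 (0.0248) and Slc9a3 (0.0234) did. With 2 libraries per genotype, carriers below 1 CPM limit what can be detected.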
